A study of Mus musculus with 6 samples.

Results

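The S100 proteins and annexins described here are S100a4, S100a6, S100a10, S100a11, S100a13, Anxa1, Anxa2, Anxa3, Anxa5 and Anxa6, listed by name and matched exactly to the gene symbols of the count table. All 10 were present among its 10520 genes, and all 10 were among the 8969 genes that passed the filter on low counts and were tested. The libraries come from E0771 cells, a mouse mammary carcinoma line of C57BL/6 origin, and each group had 3 libraries. The shControl cells were transduced with an empty lentiviral pLKO.5-puro vector and the shLmna cells with the same kind of vector carrying an shRNA against lamin A/C. Both were grown in serum-containing medium and selected and expanded under puromycin. A single shRNA construct was used in these libraries, the titles of the shLmna libraries call it shRNA4, and the sources used here do not say whether the 3 libraries of a group came from separate transductions or cultures. The p-values below therefore measure the spread between these libraries, which may be technical.

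S100 proteins are small calcium sensors. Each has a pair of EF-hand motifs and usually works as a dimer. Most bind and alter partner proteins when calcium rises, while S100a10 is calcium-insensitive. Annexins bind acidic phospholipids in a calcium-dependent manner and gather at the inner face of the plasma membrane, where they take part in vesicle traffic, in the anchoring of the actin cortex and in the sealing of membrane wounds. The families meet in complexes such as that of S100a10 with Anxa2 and of S100a11 with Anxa1. S100a4 is widely known as a metastasis-associated protein in mammary carcinoma that binds non-muscle myosin.

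RNA was measured by MARS-seq, a 3′-end method in which each captured poly(A) RNA molecule receives its own random barcode, the UMI. A molecule is thus counted once, and counts do not scale with transcript length. Totals ran from 1846208 to 3242051 UMIs per library. A normalized count is the UMI count scaled by edgeR's TMM factors to the mean effective library size, and a gene was called where the adjusted p of edgeR's quasi-likelihood test over all tested genes was below 0.05. By this rule 13.7% of the tested genes were called, 7.96% higher and 5.78% lower in shLmna. With a correction for the GC content of the 3′ ends 8.03% were higher and 8.9% lower. Lmna, the targeted gene, fell from 2169 ± 156 to 946 ± 15.7 normalized counts (SD, n = 3 each), a log2 fold change of -1.20 (SE 0.13, adjusted p = 3.5e-05, edgeR). In bulk libraries a change in the number of cells that express a gene and a change in RNA per cell cannot be told apart. Positions 13 to 15 of the plate held shControl and positions 16 to 18 held shLmna, which means that an effect of position cannot be told apart from that of the group.

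The library shControl 3 and the library shLmna 2 stood apart. Of 6 melanocyte markers fixed in a list, 5 had a row in the table (Mlana, Pmel, Tyrp1, Dct and Mitf), and their summed count was 1385 UMIs in shControl 3 and 1607 UMIs in shLmna 2, against 15, 7, 2 and 5 UMIs in shControl 1, shControl 2, shLmna 1 and shLmna 3. S100b, an S100 protein of melanocytes and glia that is used as a melanoma marker, had 5 UMIs in shControl 3, 14 UMIs in shLmna 2 and none in the other 4 libraries. The study also sequenced B16F10 melanoma cells, and those libraries were not analysed here. Of 8 epithelial markers listed, 3 had a row in the table, Krt8 with a mean normalized count of 704, Epcam with 25.8 and Krt18 with 14.3, while Cdh1 and 4 others had none. Epcam had normalized counts of 33.1, 35.7 and 33.0 in shControl and 13.03, 29.2 and 10.6 in shLmna, lower without overlap but not called (log2 fold change -0.90, adjusted p = 0.091, edgeR). Only Cd68 of 6 leukocyte markers and Pecam1 of 4 endothelial markers had a row, with at most 34 and 7 UMIs in a library. Of 6 fibroblast markers 4 had a row, and their summed normalized count was 46.1 to 46.8 in shControl and 67.5 to 76.6 in shLmna. Most of that difference was Pdgfrb, which was called higher (27.4 against 46.6 on average, adjusted p = 0.046, edgeR), while Pdgfra was 12.8 and 13.3 and Col1a1 and Col1a2 were too low to be tested. The part of these markers in the results below was not tested. Because of the melanocyte transcripts, results are given with all 6 libraries and with the 4 libraries that remain without shControl 3 and shLmna 2.

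Of the 10 genes, 2 were higher in shLmna, S100a4 and S100a6, and none was called lower. This is 2 of 10 genes against 7.96% of all tested genes called higher. At an unadjusted p below 0.05 in edgeR's test, 3 of the 10 were higher, against 15.3% of all tested genes, and 0 were lower, against 13%. DESeq2 also called 2 of the 10 higher, against 6.53% of all tested genes, and 0 lower, against 4.98%. The median log2 fold change was 0.27 over the 10 genes, 0.32 over the 5 S100 genes and 0.22 over the 5 annexins, beside 0.0033 over all tested genes. No overlap between the groups was seen for 3 of the 10 genes, S100a4, S100a6 and Anxa6, each higher in shLmna, while 16.8% of all tested genes were higher without overlap. In the 4 libraries, 3 of the 10 genes were higher, S100a4, S100a6 and Anxa1, against 7.7% of the genes tested there, and 0 were lower, against 5.45%.

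**Figure D1:**
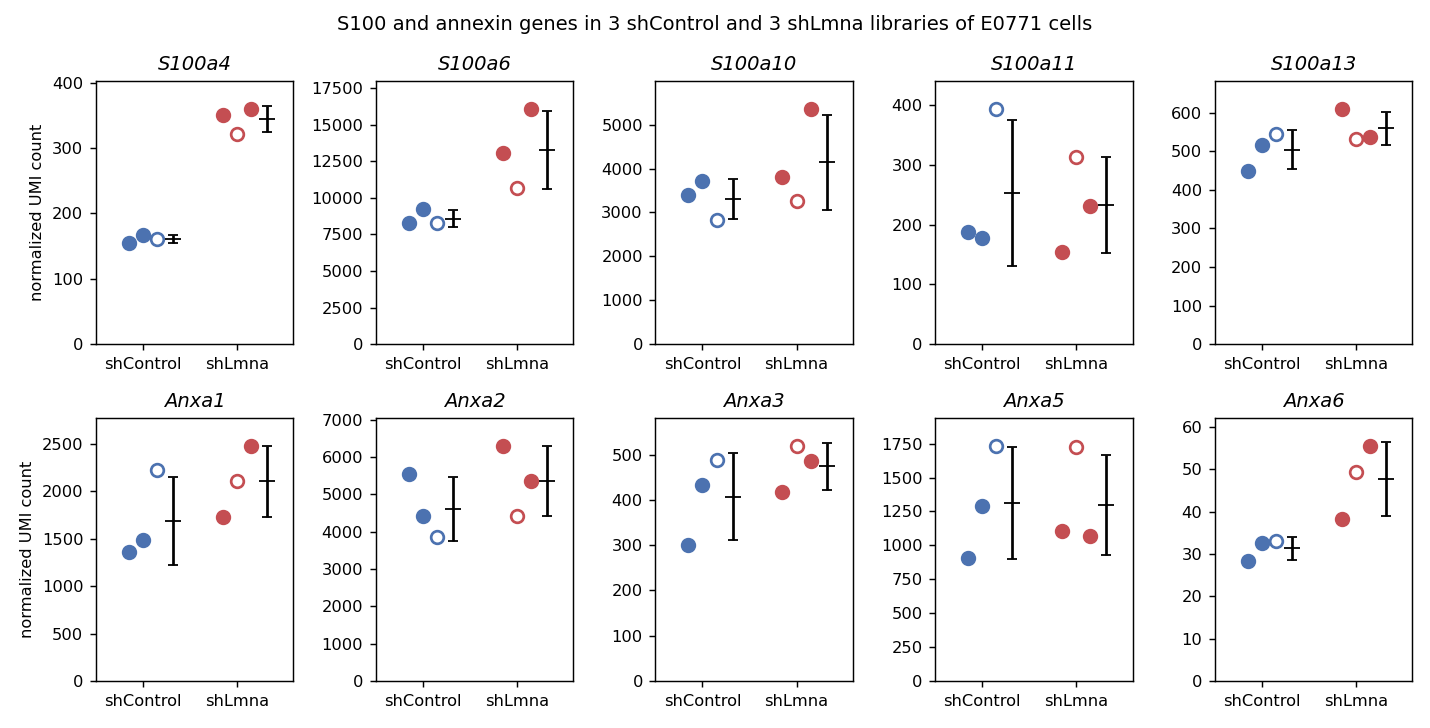
Normalized UMI counts of the 10 genes (vertical axes from 0) in each of the 3 shControl and 3 shLmna libraries, with open circles for shControl 3 and shLmna 2, which hold melanocyte transcripts, and black bars for the mean ± SD. S100a4 sits between 155 and 167 in shControl and between 322 and 359 in shLmna. The open circles of S100a11, Anxa3 and Anxa5 lie above the filled ones of their group.

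S100a4 rose to about double its control level and was the only one of the 10 genes called under each of the 15 alternatives run. It lies on the forward strand of chromosome 3 (GRCm38, 90603771 to 90606045). Its counts were 159, 215 and 122 UMIs in shControl 1, 2 and 3 and 377, 353 and 272 UMIs in the shLmna libraries. After normalization these were 155, 167 and 161 in shControl and 351, 322 and 359 in shLmna, so the lowest shLmna library was above the highest shControl library by far more than the spread within either group. The means were 161 ± 6.05 and 344 ± 19.6 (SD, n = 3 each), a fold of 2.13 and a log2 fold change of 1.09 (SE 0.14, 95% interval 0.79 to 1.40, adjusted p = 0.00019, edgeR). S100a4 was the only one of the 10 genes to pass the study's own stricter criteria, which 5.71% of tested genes passed. These ask for an adjusted p below 0.05 together with a change of more than 1 on the log2 scale and more than 5 normalized counts on average. In the 4 libraries S100a4 had a log2 fold change of 1.14 (adjusted p = 0.00013, edgeR), and it was 1.00 between shLmna 2 and shControl 3 alone, where 1 library stands against 1 and no test is possible.

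S100a6, also called calcyclin, which is induced in growing cells and binds annexins and the ubiquitin-ligase adaptor Cacybp, was the most abundant of the 10 genes and ranked 15 by mean normalized count among all tested genes. It lies next to S100a4 on the same strand of chromosome 3 (90612882 to 90624181). Its normalized counts were 8259, 9231 and 8260 in shControl and 13040, 10705 and 16061 in shLmna. The groups did not overlap, but the shLmna libraries spread widely. The lowest of them was shLmna 2, which holds melanocyte transcripts, at 0.74 times the mean of the other shLmna libraries. The same ratio for shControl 3 was 0.94. The log2 fold change was 0.63 (SE 0.16, 95% interval 0.29 to 0.97, adjusted p = 0.016, edgeR), a fold of 1.55. S100a6 took on average 0.338% of all UMIs in shControl and 0.542% in shLmna. In the 4 libraries S100a6 had a log2 fold change of 0.74 (adjusted p = 0.0049, edgeR), and it was 0.37 between shLmna 2 and shControl 3. The call was lost when shControl 1 (adjusted p = 0.088), shControl 2 (0.075), shLmna 1 (0.060) or shLmna 3 (0.10) was left out, with log2 fold changes from 0.47 to 0.68 in those edgeR fits. Fewer genes of the whole table were called in these fits, with 5.42%, 3.85%, 5.44% and 4.58% of all tested genes higher in that order.

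**Figure D2:**
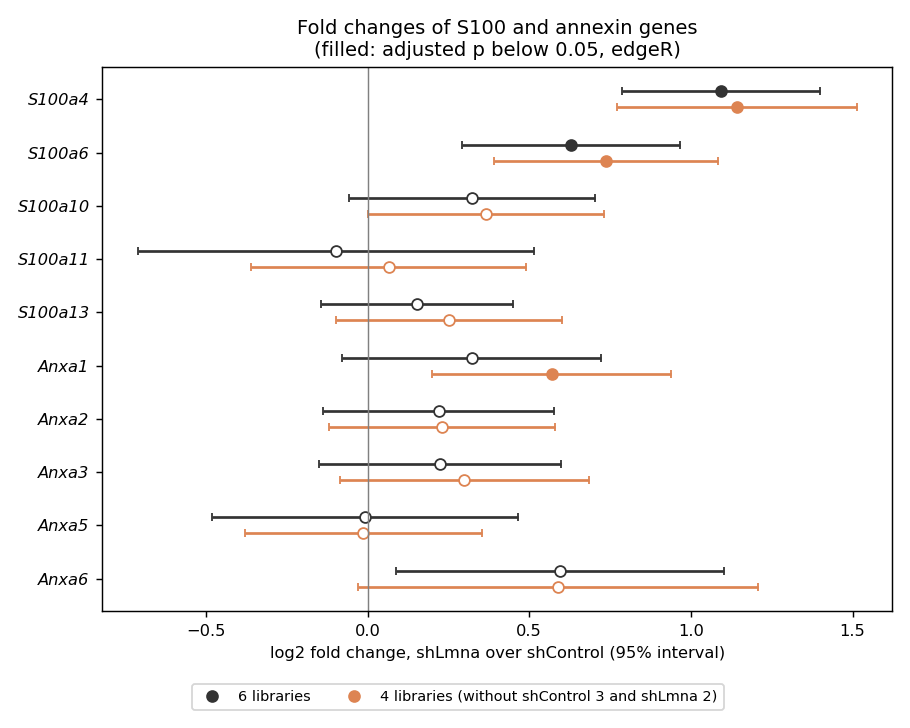
Log2 fold change of shLmna over shControl for the 10 genes (horizontal axis, with 95% intervals from edgeR) in all 6 libraries (black) and without shControl 3 and shLmna 2 (orange), filled where the adjusted p is below 0.05. S100a4 and S100a6 are filled in both fits, at 1.09 and 0.63 with 6 libraries, and Anxa1 is filled only in the fit with 4 libraries, at 0.57.

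S100a4 and S100a6 are neighbours in the S100 gene cluster, with 6.84 kb between the end of one and the start of the other. S100a4 starts 2.09 Mb beyond the higher coordinate of Lmna (88509956) on chromosome 3, where Lmna lies on the reverse strand. The promoter windows of these called genes are shown with that of S100a11, a gene of the same chromosome that was not called, in RefSeq sequence of GRCm38.p6. Each runs from 250 bases before to 50 bases after the annotated start on the forward strand, and promoter sequences were matched for 7 of the 10 genes. Capitals mark matches on either strand to 5 motifs, the TATA box (TATAAA), the CCAAT box (CCAAT), the GC box (GGGCGG), the AP-1 motif (TGANTCA) and the TEAD motif (GGAATG).
S100a4 (chr3:90603520-90603819): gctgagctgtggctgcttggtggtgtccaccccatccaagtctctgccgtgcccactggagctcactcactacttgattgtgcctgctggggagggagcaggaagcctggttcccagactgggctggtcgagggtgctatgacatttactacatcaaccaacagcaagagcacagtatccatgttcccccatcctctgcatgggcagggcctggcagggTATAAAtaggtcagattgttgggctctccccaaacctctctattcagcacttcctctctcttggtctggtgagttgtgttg
S100a6 (chr3:90612644-90612943): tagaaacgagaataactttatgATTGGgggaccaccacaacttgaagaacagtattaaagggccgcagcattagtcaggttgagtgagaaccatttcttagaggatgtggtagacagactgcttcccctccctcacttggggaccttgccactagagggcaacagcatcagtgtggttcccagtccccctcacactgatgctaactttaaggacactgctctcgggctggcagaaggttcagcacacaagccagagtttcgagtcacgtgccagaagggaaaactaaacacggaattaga
S100a11 (chr3:93520246-93520545): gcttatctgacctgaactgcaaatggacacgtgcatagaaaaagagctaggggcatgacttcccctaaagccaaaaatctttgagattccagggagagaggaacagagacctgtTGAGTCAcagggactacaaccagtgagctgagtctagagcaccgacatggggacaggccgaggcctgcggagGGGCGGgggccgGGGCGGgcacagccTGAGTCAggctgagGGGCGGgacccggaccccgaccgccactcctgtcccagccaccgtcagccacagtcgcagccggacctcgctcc
The S100a4 window holds a TATA box at position -31 from its start, a motif found in 14.2% of 27025 promoter windows of this length. The S100a6 window holds no TATA box match and holds 1 CCAAT box on the reverse strand, which 37.9% of windows contain. The S100a11 window holds 3 GC boxes and 2 AP-1 matches, motifs found in 35.9% and 7.93% of windows. None of the 5 motifs was matched in both the S100a4 and the S100a6 window, which says nothing of the factors that bind there.

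Along chromosome 3 the S100 genes did not move alike. In order, the log2 fold changes were 0.04 for S100a1, 0.15 for S100a13, 0.68 for S100a16, 0.45 for S100a3, 1.09 for S100a4 and 0.63 for S100a6. A window of 500 kb on either side of S100a4 was set after the values were seen. The 12 tested genes in it that are not S100 genes had a median log2 fold change of 0.01, from -0.35 to 0.85. By edgeR 0 of these 12 were called in either direction, against 13.7% of all tested genes. All 12 start at -390.1 to -104.8 kb from the start of S100a4, and no gene beyond S100a6 was tested in the window. S100a16 did not overlap between the groups but missed the threshold (adjusted p = 0.076, edgeR). S100a11 and S100a10, which lie farther along the chromosome (93520488 to 93526287 and 93555080 to 93564643), were not called. An annotated read-through transcript, Gm42674, shares exon sequence with S100a3 and S100a4, so UMIs of that transcript and of S100a4 cannot be separated.

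**Figure D3:**
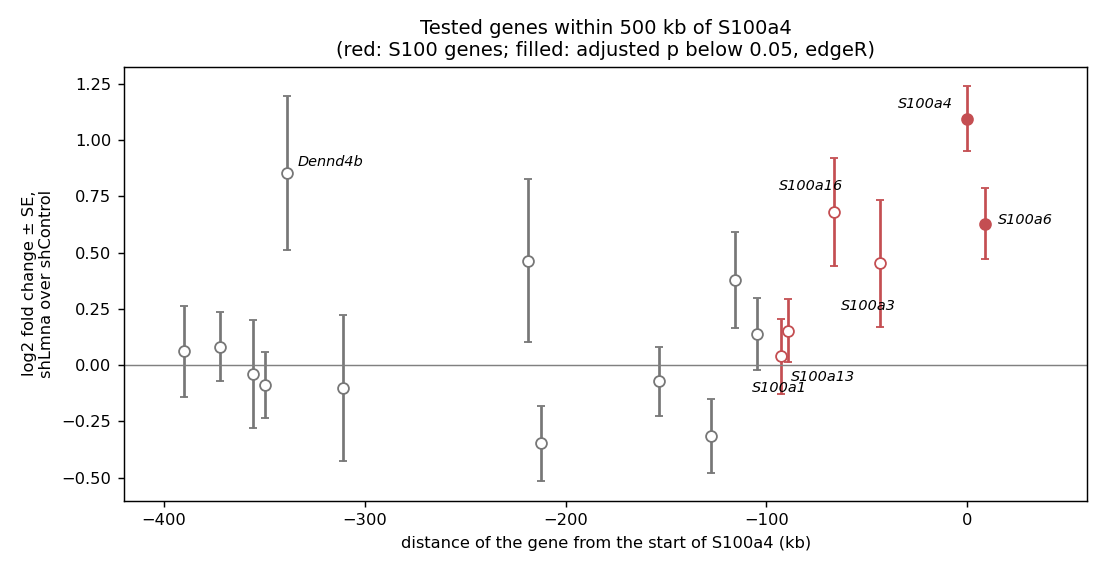
Log2 fold change ± SE (vertical axis) of the 18 tested genes within 500 kb of S100a4, by distance of the gene's start from that of S100a4 in kb (horizontal axis), with S100 genes in red and filled points for an adjusted p below 0.05. The 2 filled points are the adjacent genes S100a4 and S100a6, and no gene that is not an S100 gene is filled. No gene beyond S100a6 was tested in the window.

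The other 3 S100 genes were not called. S100a10, a calcium-insensitive member that binds Anxa2 and is a plasminogen receptor at the cell surface, had normalized counts of 3402, 3712 and 2822 in shControl and 3809, 3271 and 5350 in shLmna. Its groups overlapped, and the log2 fold change of 0.32 had a 95% interval from -0.06 to 0.70 (adjusted p = 0.26, edgeR). S100a13, which takes part in the unconventional release of fibroblast growth factor, had normalized counts of 448, 517 and 546 in shControl and 609, 532 and 538 in shLmna. The groups overlapped, with a log2 fold change of 0.15 and an interval from -0.15 to 0.45 (adjusted p = 0.52, edgeR).

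S100a11, a partner of Anxa1 in membrane organization, differed more between libraries of a group than between groups. Its normalized counts were 187, 178 and 393 in shControl and 154, 314 and 231 in shLmna. The highest value of each group was in the library with melanocyte transcripts, 2.15 times the mean of the other shControl libraries in shControl 3 and 1.63 times the mean of the other shLmna libraries in shLmna 2. The log2 fold change was -0.10 with an interval from -0.71 to 0.52 (adjusted p = 0.87, edgeR), and 0.07 with an interval from -0.36 to 0.49 in the 4 libraries. The 3′ end of S100a11 matches the processed pseudogenes Gm12854 and Gm7665 over 297 bases at 98.99% and 98.65% identity, so its counts are uncertain.

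Anxa1, which inhibits phospholipase A2 and limits inflammation, had normalized counts of 1355, 1483 and 2222 in shControl and 1729, 2111 and 2478 in shLmna. The single shControl library inside the shLmna range was shControl 3, at 1.57 times the mean of the other shControl libraries. With all 6 libraries the log2 fold change was 0.32 with an interval from -0.08 to 0.72 (adjusted p = 0.29, edgeR). In the 4 libraries it was 0.57 with an interval from 0.20 to 0.94 and Anxa1 was called (adjusted p = 0.037, edgeR), and with shControl 3 alone left out it was 0.56 (adjusted p = 0.026, edgeR). With all 6 libraries and a term for the libraries that hold melanocyte transcripts it was 0.35 and not called (adjusted p = 0.11, edgeR), and between shLmna 2 and shControl 3 alone it was -0.07.

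Anxa5, known as the probe for phosphatidylserine on dying cells, was not called. Its normalized counts were 906, 1291 and 1733 in shControl and 1106, 1726 and 1069 in shLmna, so that shControl 3 and shLmna 2 were the highest of their groups, at 1.58 and 1.59 times the mean of the others. The log2 fold change was -0.01 with an interval from -0.48 to 0.47 with 6 libraries (adjusted p = 0.99, edgeR), and -0.01 with an interval from -0.38 to 0.35 with 4 libraries. How much of these levels came with the melanocyte transcripts was not tested.

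**Figure D4:**
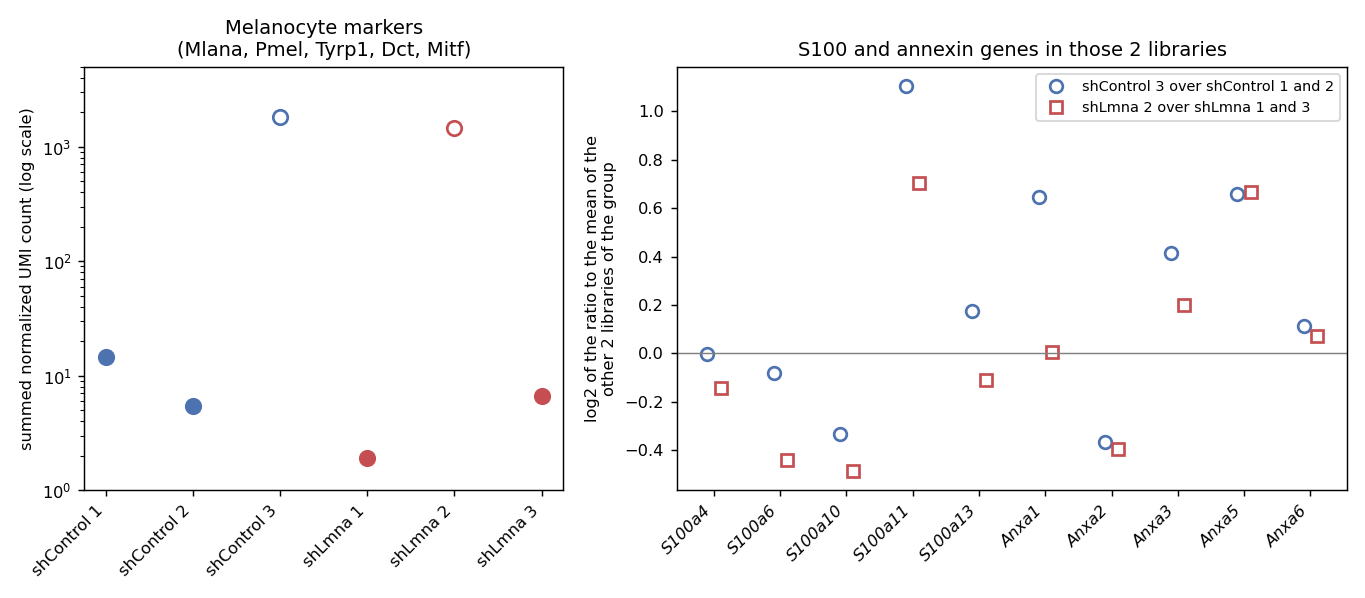
Left, summed normalized count of the melanocyte markers Mlana, Pmel, Tyrp1, Dct and Mitf (log axis) in each library. Right, log2 of the ratio of shControl 3 (blue circles) and shLmna 2 (red squares) to the mean of the other 2 libraries of the same group, for the 10 genes. The summed markers are 1825 in shControl 3 and 1466 in shLmna 2 against at most 14.6 elsewhere. S100a11, Anxa1, Anxa3, Anxa5 and Anxa6 are above 0 in both libraries, and S100a4, S100a6, S100a10 and Anxa2 are below 0 in both. Of these, Anxa1 in shLmna 2 and S100a4 in shControl 3 are near 0.

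Anxa2, a profibrinolytic annexin that bridges membranes and actin, was the most abundant annexin, with normalized counts of 5534, 4421 and 3856 in shControl and 6297, 4433 and 5353 in shLmna. The groups overlapped and the lowest library of each group was the one with melanocyte transcripts, whereas these libraries were the highest of their groups for Anxa5. The log2 fold change was 0.22 with an interval from -0.14 to 0.58 (adjusted p = 0.42, edgeR). S100a10 was likewise lowest in shControl 3 and in shLmna 2 of their groups. The ratio of S100a10 to Anxa2 UMIs within a library, which needs no scaling, was 0.615, 0.840 and 0.732 in shControl and 0.605, 0.738 and 1.00 in shLmna. The mean log2 ratio differed by 0.080 between the groups (p = 0.9, two-sided exact permutation test over 6 libraries, which cannot give a p below 0.1), and its sign turned when shControl 1 or shLmna 3 was left out.

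Anxa3, which is prominent in neutrophils and in some carcinomas, had normalized counts of 300, 432 and 488 in shControl and 417, 519 and 486 in shLmna. The groups overlapped, and shControl 3 and shLmna 2 were the highest of their groups, at 1.33 and 1.15 times the mean of the others. The log2 fold change of Anxa3 was 0.22 with an interval from -0.15 to 0.60 (adjusted p = 0.43, edgeR). Anxa6, the annexin with a doubled set of core repeats, which recruits the Ras regulator Rasa1, was the least abundant of the 10 genes. Its counts were 29, 42 and 25 UMIs in shControl and 41, 54 and 42 UMIs in shLmna. After normalization they were 28.3, 32.6 and 33.0 in shControl and 38.2, 49.3 and 55.5 in shLmna, without overlap. The log2 fold change was 0.59 with an interval from 0.09 to 1.10, about the size of that of S100a6, but the adjusted p was 0.11 (edgeR), and it was 0.21 at a log2 fold change of 0.59 in the 4 libraries.

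Summed over the 5 S100 genes, the share of all UMIs was 0.479%, 0.548% and 0.487% in shControl and 0.713%, 0.635% and 0.924% in shLmna, of which S100a6 was the larger part. Summed over the 5 annexins it was 0.312%, 0.304% and 0.333% in shControl and 0.380%, 0.370% and 0.387% in shLmna, of which Anxa2 was the largest part in each library. Both sums were higher in each shLmna library than in any shControl library. Among single genes, 16.8% of all tested genes were higher without overlap. No single annexin was called with 6 libraries, and only Anxa6, the least abundant, was higher without overlap.

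Of 20 further S100 and annexin genes listed, 9 had a row in the table and 6 were tested. Of these edgeR called 0 higher, against 7.96% of all tested genes, and 0 lower, against 5.78%. DESeq2 also called 0 higher, against 6.53%, and 0 lower, against 4.98%. At an unadjusted p below 0.05, 1 was higher and 0 were lower in each. In edgeR's test 15.3% of all tested genes were higher and 13% lower at that threshold. With DESeq2, 1124 of the 8969 tested genes were higher and 981 lower at it. The most abundant were S100a1 and Anxa7, with log2 fold changes of 0.04 and 0.03. S100a7a, S100a8 and S100b were too low to be tested, at up to 14 UMIs in a library.

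Among 19 listed binding partners, receptors and plasminogen partners of these proteins, 11 had a row and 9 were tested. In edgeR's test 2 of the 9 were higher, against 7.96% of all tested genes, and 1 was lower, against 5.78%. Plaur, the urokinase receptor that focuses plasminogen activation at the cell surface, fell from normalized counts of 810, 760 and 718 in shControl to 433, 377 and 439 in shLmna. The groups lay far apart, with a log2 fold change of -0.88 (SE 0.14, adjusted p = 0.00071, edgeR) and -0.85 in the 4 libraries. Plgrkt, a plasminogen receptor of the plasma membrane, rose by 0.58 (SE 0.18, adjusted p = 0.043, edgeR), and Pla2g4a, the cytosolic phospholipase A2, rose by 0.99 (SE 0.28, adjusted p = 0.030, edgeR). Both of these lost their call with DESeq2 (adjusted p = 0.073 and 0.069), and so did Plgrkt with no filter on low counts (adjusted p = 0.059, edgeR) and Pla2g4a in the 4 libraries (adjusted p = 0.070, edgeR). With the GC correction Pla2g4a, with a GC content of 36.6% at its 3′ end, had a log2 fold change of 0.63 and was not called (adjusted p = 0.098, edgeR), and 0.57 with that correction in the 4 libraries (adjusted p = 0.26, edgeR). Leaving out 1 library also ended the call of Plgrkt (adjusted p 0.15 without shControl 1, 0.19 without shControl 2, 0.076 without shLmna 1, 0.1 without shLmna 2, 0.14 without shLmna 3, edgeR) and of Pla2g4a (adjusted p 0.12 without shControl 1, 0.095 without shControl 2, 0.11 without shLmna 2, 0.1 without shLmna 3, edgeR). Myh9, the non-muscle myosin heavy chain that S100a4 binds and the most abundant partner listed, had a log2 fold change of 0.05 and was not called (adjusted p = 0.86, edgeR). Cacybp, the next most abundant, had 0.33 (adjusted p = 0.30, edgeR), which turned to -0.20 with the GC correction (adjusted p = 0.33, edgeR) and was called only without shControl 3 (0.57, adjusted p = 0.029, edgeR). Rasa1, named after its values were seen, had 0, 1 and 0 UMIs in shControl and 9, 18 and 15 UMIs in shLmna and was too low for the filter. Fitted without a filter it had an adjusted p of 0.0017 (edgeR), and the GC content of its 3′ end was 29.5%, against a median of 47.1% for tested genes.

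Of 22 other listed genes of plasma membrane repair, 20 had a row and 19 were tested. By edgeR 3 of the 19 were higher, against 7.96% of all tested genes, and 0 were lower, against 5.78%. Dysf, encoding dysferlin, the calcium-triggered vesicle fusion protein of membrane repair, rose from 31.2, 35.0 and 38.2 normalized counts to 67.0, 66.6 and 91.2, a log2 fold change of 1.10 (SE 0.22, adjusted p = 0.0048, edgeR). Chmp3, a subunit of the ESCRT-III membrane scission machinery, rose by 0.84 (SE 0.17, adjusted p = 0.0040, edgeR). Capn1, a calcium-activated protease, rose by 0.59 (SE 0.16, adjusted p = 0.024, edgeR), and its adjusted p was 0.069 in the 4 libraries. Its call was also lost with 1 library left out (adjusted p 0.075 without shControl 2, 0.063 without shControl 3, 0.1 without shLmna 1, 0.052 without shLmna 2, 0.054 without shLmna 3, edgeR). The list's most abundant members Capns1, the calpain small subunit, and Capn2, a calpain large subunit, had log2 fold changes of -0.0024 and -0.03, neither called.

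Of 13 other cytosolic EF-hand sensors listed, 10 were tested. Among these 1 was higher by edgeR, against 7.96% of all tested genes, and 1 was lower, against 5.78%. Calm3, a calmodulin gene, rose by 0.64 (SE 0.15, adjusted p = 0.0094, edgeR), while Calm2, the most abundant gene of the list, had a log2 fold change of -0.35 and was not called (adjusted p = 0.17, edgeR). Calm2 was called lower with the GC correction (-0.47, adjusted p = 0.029, edgeR), with the same correction in the 4 libraries (-0.47, adjusted p = 0.043, edgeR) and with a term for the libraries with melanocyte transcripts (-0.35, adjusted p = 0.040, edgeR). Its transcript has processed pseudogene copies, so its counts are uncertain. Efhd2, the next most abundant of the list, had a log2 fold change of 0.25 (adjusted p = 0.23, edgeR). Ncs1, neuronal calcium sensor 1, fell by 0.59 on the log2 scale (SE 0.16, adjusted p = 0.025, edgeR). With 1 library left out Calm3 lost its call once (adjusted p 0.057 without shControl 2, edgeR) and Ncs1 lost it repeatedly (adjusted p 0.098 without shControl 1, 0.12 without shControl 2, 0.062 without shLmna 1, 0.079 without shLmna 2, 0.1 without shLmna 3, edgeR). The median log2 fold changes of the 4 lists were 0.17, 0.18, 0.04 and 0.08 in the order given, beside 0.0033 for all tested genes.

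**Figure D5:**
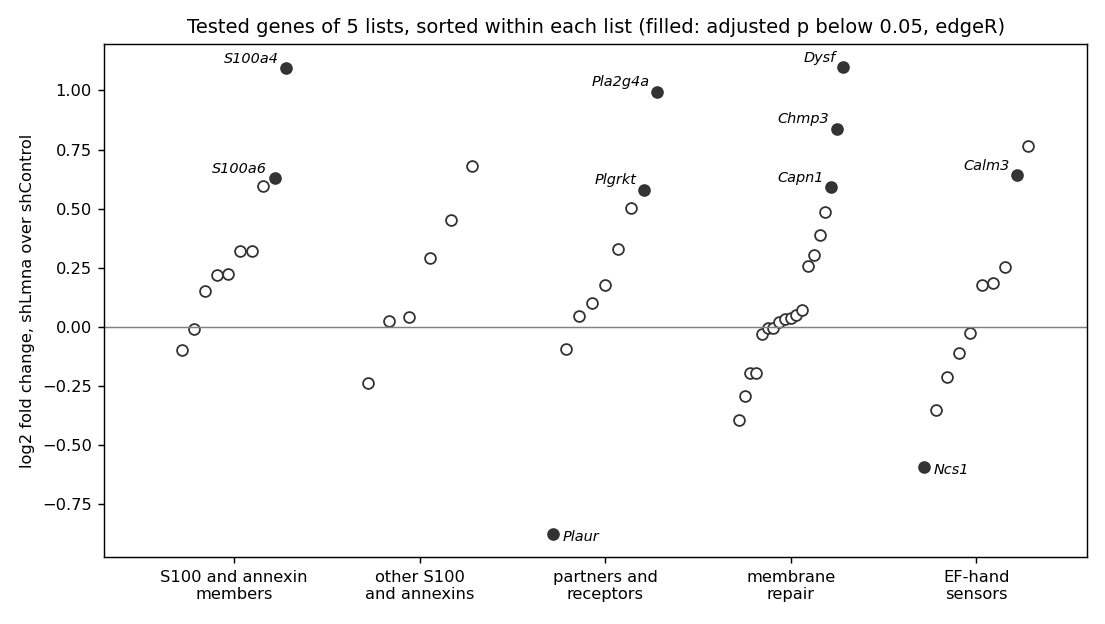
Log2 fold change of shLmna over shControl (vertical axis) for every tested gene of the 10 S100 and annexin genes and of 4 further lists, sorted within each list, filled and named where the adjusted p is below 0.05 (edgeR). S100a4 at 1.09 and Dysf at 1.10 are the highest of the named genes, and Plaur at -0.88 and Ncs1 at -0.59 are the only filled points below 0.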

How the data were processed

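MARS-seq libraries of shControl and shLmna E0771 cells were analysed, 3 per group, with groups taken from the sample labels. The values used were the deposited raw UMI counts per gene, made by the authors with Cutadapt, STAR 2.4.2a and HTSeq against mm10 per the submitters' processing notes. The strand setting of the counting was not given in the sources used here. The deposited batch-corrected values and the authors' own differential expression results (fold changes and p-values) were not used. Totals were 1846208 to 3242051 UMIs per library, and replicate libraries differed by more than sampling noise.

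Counts were filtered with filterByExpr (minimum count 10), scaled by TMM and tested with edgeR 4.0.16 (limma 3.58.1, R 4.3.3) by the quasi-likelihood F test, 3 shControl against 3 shLmna libraries, with Benjamini-Hochberg adjustment over 8969 of 10520 genes. The SE was the log2 fold change divided by the square root of F. The S100a10 to Anxa2 ratio was compared by an exact permutation test. The procedure was tested on simulated data in which the planted changes were larger than that of any of the 10 genes. Alternatives were DESeq2 1.42.0, RLE scaling, no filter, a replicate block, a loess correction for the GC content of 3′ ends and leaving out each library. Fits without shControl 3 and shLmna 2, or with a term for them, were chosen after seeing the data. Gene positions and GC content came from GENCODE M21 (GRCm38), in which 10468 genes were matched, and similar transcripts were searched with BLAST 2.17.0.

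The 10 genes and the lists were chosen with earlier results of these data known. Named genes were the 10 genes, Lmna and, from each of 4 further lists, every called gene and the 2 tested genes with the highest mean normalized count over the 6 libraries. Genes outside this rule (S100a16, Chmp2b and other genes of the S100 cluster, untested S100 genes, markers and Rasa1) were named after their values were seen.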

Additional observations from a re-analysis of the deposited data

How the results depend on the processing

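S100a4 was called under each of the 15 alternatives run, with log2 fold changes from 1.05 to 1.21. Leaving out 1 library at a time gave 1 to 3 of the 10 genes higher and never a gene lower, and the count was 1 without shControl 1, shControl 2, shLmna 1 or shLmna 3, where only S100a4 remained. The share of all tested genes called higher moved in the same fits, from 3.85% without shControl 2 to 9.61% without shControl 3, beside 7.96% with all libraries. The share called lower ran from 2.04% without shControl 2 to 7.61% without shControl 3, beside 5.78% with all libraries. The same fits gave 0 to 4 partner genes higher, 0 to 2 EF-hand genes higher, 0 to 1 EF-hand genes lower, and a difference in the S100a10 to Anxa2 log2 ratio from -0.11 to 0.25, with -0.037 without shControl 1 and -0.11 without shLmna 3. The partner genes called higher numbered 0 with DESeq2 and 1 with the GC correction, with the GC correction and replicate block, and without shControl 3 and shLmna 2 with or without the GC correction. Of the further S100 and annexin genes, 1 was higher (S100a16) with a term for the libraries with melanocyte transcripts and with the GC correction in the 4 libraries. Of the membrane repair genes, 1 (Chmp2b) was lower with the GC correction, with and without the replicate block. Of the EF-hand genes, 2 (Ncs1 and Calm2) were lower with the GC correction, with the term and with the GC correction in the 4 libraries. Of all tested genes, 11.5% were higher and 9.34% lower with the term, and 7.42% and 7.98% with the GC correction in the 4 libraries. With the GC correction and replicate block, 7.34% were higher and 8.37% lower. The causes of the shifts in these lists were not tested. The GC correction moved the split of all tested genes from 7.96% higher and 5.78% lower to 8.03% higher and 8.9% lower.

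Signs turned for genes near 0 that were not called. Leaving out 1 library at a time gave log2 fold changes from -0.38 to 0.34 for S100a11, from -0.26 to 0.23 for Anxa5, from -0.085 to 0.14 for S100a1, from -0.065 to 0.11 for Anxa7, from -0.0079 to 0.073 for Myh9, from -0.20 to 0.10 for Capn2 and from -0.076 to 0.095 for Capns1. The 4 libraries gave 0.066 for S100a11, -0.10 for Anxa7 and 0.017 for Capns1, and with the GC correction 0.13 for S100a11, 0.040 for Anxa5, -0.11 for Anxa7 and 0.070 for Capns1. With all 6 libraries Anxa5 was 0.0096 with the replicate block, 0.028 with the GC correction and 0.048 with both, Capns1 was 0.022 with the GC correction and 0.027 with it and the block, and Cacybp was -0.197 with the GC correction, -0.196 with it and the block and -0.15 with it in the 4 libraries.

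Same-numbered libraries correlated in their deviations from the group means at 0.335, -0.109 and 0.0101, so the numbers were not taken to pair the libraries. Between libraries of different numbers the values ran from -0.352 (shControl 3 and shLmna 1) to 0.331. The latter was for shControl 3 and shLmna 2, which hold melanocyte transcripts. With the replicate block 2 of the 10 genes were higher, against 8.62% of all tested genes, and 0 were lower, against 6.43%. The Lmna log2 fold change in that fit was -1.19. For the genes not called, standard errors from 0.14 to 0.29 on the log2 scale limit what 3 libraries a group can show.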
